A study of Mus musculus with 16 samples.

Results

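The response of macrophages to heme bound to albumin at 200 µM was described across all genes on the array, by setting the 4 arrays of that treatment (HemeAlb200) against the 4 arrays of untreated cells (Control). These are 8 of the 16 arrays of the series. The cells were mouse macrophages grown from stem cells, and RNA was taken 8 h after heme-albumin was added, or at 0 h in the untreated cells. The other 8 arrays, 4 with heme-albumin at 50 µM for 8 h and 4 with lipopolysaccharide (LPS, a bacterial wall component) at 10 ng/mL for 8 h, entered the same fit and are used here only beside the members of that contrast. The labels state 4 independent biological replicates per condition, lettered a to d. The untreated cells were sampled at 0 h, so that heme-albumin and 8 h of incubation cannot be told apart in this comparison. The series as a whole asks whether heme triggers inflammation.

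Heme is the iron-containing pigment of hemoglobin. Macrophages of the spleen and liver take it up when they clear old or broken red cells, split it with heme oxygenase, and store or export the iron. A rise of free heme also activates NRF2, a transcription factor that switches on antioxidant genes, and iron handling and NRF2 are the best known part of the response. The account below is mainly about the other genes: those of sterol metabolism, interferon and NF-kB signalling, surface receptors, growth factors, blood clotting, and transport. Cells low in sterols activate SREBP, which raises cholesterol synthesis and uptake, whereas cells rich in sterols activate the LXR receptors, which raise cholesterol efflux. Type I interferon, made at a low level even by resting macrophages, keeps a set of antiviral genes active through a dedicated set of transcription factors. NF-kB is the main factor behind the early inflammatory genes that bacterial products switch on.

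Each array carried the sample in red and RNA of untreated cells in green, and the Control arrays carried untreated RNA in both colours. A value below is a log2 ratio of red over green on 1 array, or, for a comparison, the difference between the means of 4 HemeAlb200 and 4 Control arrays on the log2 scale with the standard error of the fit, so that 1 unit is a factor of 2. A gene was called when its Benjamini-Hochberg adjusted p from limma was under 0.05 and its difference was at least 2-fold. Between 49.9 and 59.4% of probes were well above background in red on the 8 arrays, saturated spots numbered 0, and precision is limited by having 4 arrays per group. Replicates a and b were scanned on one day and c and d on another, and all arrays of a group lie at the same position of their slides, so that position and group cannot be told apart. Each letter is also its own slide. The sample titles further carry a tag of unstated meaning, written in one style for a and b and in another for c and d. Scan day, slide and the source of the cells therefore cannot be told apart where a and b differ from c and d. Of 36 macrophage genes on the array, 32 were well above background on all HemeAlb200 arrays and 33 on all Control arrays. Of the markers of cells other than macrophages, 8 of 10 for mast cells and basophils, 6 of 10 for lymphocytes, 4 of 10 for red cell precursors and megakaryocytes and 3 of 9 for endothelium were above background on no array of either group. On all arrays of each group, 2 of the 10 red cell and megakaryocyte markers and 4 of the 9 endothelial markers were above background. Summed red signals of the former were 26600 to 39600 in HemeAlb200 and 28100 to 40500 in Control. Those of the endothelial markers were 4290 to 6640 in HemeAlb200 and 4660 to 6260 in Control. Of the neutrophil markers 7 of 13, and of the hematopoietic progenitor markers 5 of 10, were above background on all 4 arrays of each group, and 1 neutrophil and 0 progenitor markers on no array. Of 10 dendritic cell markers 3 were above background on all arrays of each group and 2 on none. Of 12 embryonic stem cell markers, 5 were above background on all HemeAlb200 arrays and 6 on all Control arrays, and Fgf4, Pou5f1, Sox2 and Zfp42 on none. None of the neutrophil, progenitor, dendritic cell and embryonic stem cell lists had a called member. Summed red signals were 20400 to 35000 in HemeAlb200 and 21200 to 31100 in Control for neutrophils, and 11900 to 16800 in HemeAlb200 and 11900 to 19200 in Control for progenitors. For embryonic stem cell markers they were 7150 to 9580 in HemeAlb200 and 5690 to 10300 in Control. The 10 fibroblast and stromal markers had summed red signals between 490 and 652 in HemeAlb200 and between 209 and 288 in Control, whereas Col1a1, Dcn, Lum, Pdgfra and Postn were above background on no array of either group. As RNA of whole cultures was measured, a change in the mixture of cells and a change of RNA per cell cannot be told apart.

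After heme-albumin at 200 µM, 386 of 12759 genes were called (3.03%). Of these, 261 were higher (2.05%) and 125 lower (0.98%) than in Control. With the deposited subtraction the increases reached further than the decreases. Ratio differences of at least 4-fold were found for 58 genes that rose and 13 that fell, and of at least 8-fold for 20 that rose and 2 that fell. The 20 include Cxcl3, Wfikkn2, Ppm1n and Rasgrf1, which were dim on every Control array, so that only bounds can be given for their folds. Of all called genes, 25 that rose and 4 that fell were dim on every array of 1 group. The median fold was 2.79 among the genes called higher and 0.42 among those called lower. Smaller differences were common: at an adjusted p under 0.05 and any size, 1380 genes were higher (10.8%) and 1529 lower (12%), and in 4536 genes (35.6%) the 4 and 4 ratios did not overlap. The count of calls was 372 from replicates a and b alone, the first scan day, and 431 from c and d. It was 151 when backgrounds were corrected with the normexp method in place of the deposited subtraction, and 228 with no subtraction. Of the 386 calls, 150 were kept with normexp correction, which left all but Adamts4, Mmp25 and Tnfsf8 with the same sign, and the differences were a median of 1.74 times those with normexp. Sizes and ranks below are therefore those of the deposited subtraction. Whichever single array of the 2 groups was left out, 295 of the calls were kept. Of the 386 genes, 284 were above background on every array of both groups.

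**Figure D1:**
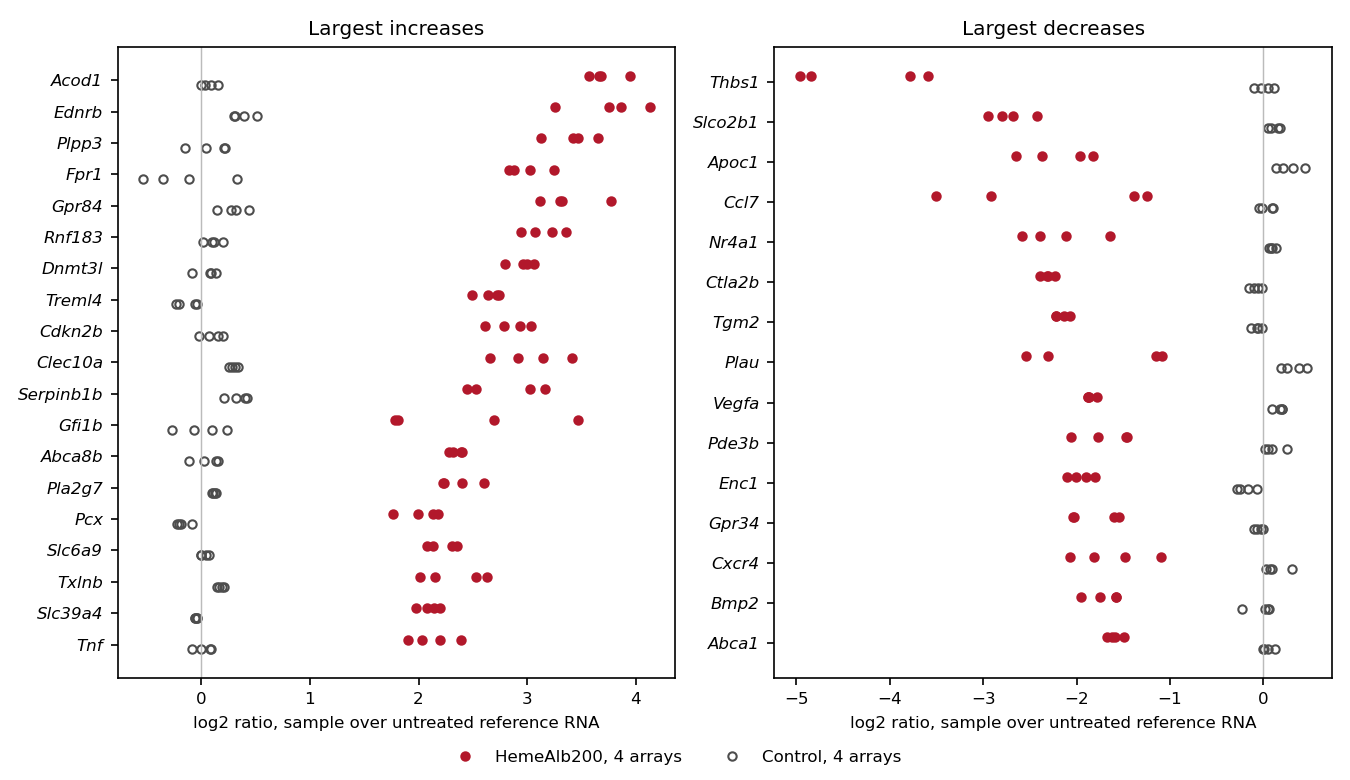
Log2 ratio of sample over untreated reference RNA (horizontal axes) for 19 of the 20 largest increases (left) and the 15 largest decreases (right) among called genes that were above background on all 8 arrays, with NRF2 and iron genes left out; each point is 1 array, filled for HemeAlb200 and open for Control. The HemeAlb200 points lie apart from the Control points for every gene shown, as the choice of genes requires, and the HemeAlb200 points of Ccl7 span −3.50 to −1.24.

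The surface receptors Fpr1, Gpr84, Ednrb, Treml4 and Clec10a were among the 20 largest increases outside the NRF2 and iron lists. Fpr1, a receptor for formylated bacterial peptides that guides phagocytes, had log2 ratios of 3.24, 3.02, 2.88 and 2.83 in HemeAlb200 replicates a to d, against 0.33, −0.12, −0.54 and −0.35 in Control. Its close relative Fpr2 had 4.03, 3.65, 3.43 and 3.21, against 0.33, 0.077, 0.14 and 0.20. In both genes each HemeAlb200 array was more than 2 units above each Control array, and the differences were 3.16 ± 0.17 (adjusted p = 9.6e-09) for Fpr1 and 3.40 ± 0.146 (adjusted p = 9.6e-10) for Fpr2, which was above background on 3 of 4 Control arrays. Gpr84, a receptor for medium-chain fatty acids, had 3.30, 3.12, 3.77 and 3.32, against 0.44, 0.27, 0.15 and 0.32. Its difference was 3.08 ± 0.181 (adjusted p = 2.1e-08). Ednrb, an endothelin receptor, had 3.25, 3.75, 4.13 and 3.87 in HemeAlb200 and 0.30, 0.52, 0.39 and 0.31 in Control, a difference of 3.37 ± 0.168 (adjusted p = 5e-09). Replicate a was the lowest HemeAlb200 array for Ednrb and still far above all Control arrays. Treml4, a receptor of the TREM family, rose by 2.78 ± 0.226 (adjusted p = 6.2e-07), with ratios of 2.72, 2.74, 2.49 and 2.64 in HemeAlb200 and −0.057, −0.035, −0.20 and −0.23 in Control. With normexp correction all of these receptors were still called, at smaller differences of 1.38 for Fpr1, 1.22 for Fpr2, 2.51 for Gpr84, 1.23 for Ednrb and 1.56 for Treml4.

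Of the 56 G protein-coupled and purinergic receptors measured, 6 were called higher and 3 lower. Besides Fpr1, Fpr2 and Gpr84, the called increases were the niacin receptor Hcar2 (1.47 ± 0.164, adjusted p = 1.4e-05), the prostacyclin receptor Ptgir (1.31 ± 0.102, adjusted p = 4.1e-07) and the lysophosphatidic acid receptor Lpar1, whose ratios of 0, 1.87, 1.94 and 0.86 overlapped those of Control (−0.046, 0.26, 0.27 and −1.31) and which was above background on no Control array. Hcar2 has a further probe, which differed by −0.065. The 3 receptors that fell were Gpr34, a receptor for lysophosphatidylserine (−1.75 ± 0.436, adjusted p = 0.0093), Gpr171 (−1.71 ± 0.208, adjusted p = 3.1e-05) and P2ry12, an ADP receptor (−1.18 ± 0.119, adjusted p = 4.9e-06). With normexp correction 4 of the list were called higher and 1 lower, and Hcar2, Lpar1, Gpr171 and P2ry12 were at 0.25, 0.157, −0.23 and −0.37 and not called. The call of Lpar1 also ended on each scan day alone and whichever array other than HemeAlb200 replicate a was left out. Here and below, list members beyond the leading 4 of each list were picked after their values were seen.

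Several C-type lectins rose as well. Of 34 measured C-type lectin and immunoglobulin-like receptors, 7 were called higher and 1 lower (20.6% and 2.94%, against 2.05% and 0.98% of all genes). The median difference was 0.283, against −0.022 over all genes. Clec10a, a lectin that binds galactose and is used as a marker of alternatively activated macrophages, had 3.15, 3.41, 2.92 and 2.66, against 0.31, 0.34, 0.28 and 0.25, a difference of 2.74 ± 0.143 (adjusted p = 7.8e-09). Clec4e, which recognises mycobacterial glycolipids and products of dead cells, had 1.85, 1.67, 2.46 and 2.13, against 0.12, 0.034, 0.13 and 0.10. It rose by 1.93 ± 0.197 (adjusted p = 5.7e-06), and its neighbours in the same gene cluster Clec4n, which binds fungal mannans, and Clec4d rose by 1.99 ± 0.298 (adjusted p = 2e-04) and 1.10 ± 0.0907 (adjusted p = 7e-07). The other called increases were Clec4b1 (1.79 ± 0.207, adjusted p = 1.8e-05), Clec4a1 (1.18 ± 0.0535, adjusted p = 1.8e-09) and Klra2 (1.39 ± 0.258, adjusted p = 0.0013). Several of these genes have close relatives, and cross-hybridisation between them was not tested. Cd300lf, an inhibitory lipid-binding receptor, fell by 1.43 ± 0.109 (adjusted p = 3.4e-07). Of the 29 Toll-like and nucleic acid receptors and their TREM relatives, 3 were called higher (10.3%, against 2.05% of all genes): Treml4, Trem3 (1.95 ± 0.266, adjusted p = 8.8e-05) and Tlr2 (1.07 ± 0.118, adjusted p = 1.2e-05), the receptor for bacterial lipopeptides. Klra2 and Trem3 were no longer called with normexp correction (0.52 and 0.50).

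Enzymes and intracellular proteins made up most of the other large increases. Acod1, which makes the antimicrobial and immunomodulatory metabolite itaconate, led them with 3.68, 3.56, 3.95 and 3.66 in HemeAlb200, against 0.038, −0.004, 0.087 and 0.16 in Control, a difference of 3.64 ± 0.18 (adjusted p = 1.1e-08). Plpp3, a phosphatase that breaks down lysophosphatidic acid and sphingosine phosphate at the cell surface, had 3.65, 3.47, 3.42 and 3.13, against 0.22, 0.045, −0.15 and 0.21. Pla2g7, the secreted enzyme that inactivates platelet-activating factor, had 2.60, 2.40, 2.23 and 2.22, against 0.13, 0.096, 0.11 and 0.13. The groups were far apart in all 3 enzymes, and Plpp3 rose by 3.33 ± 0.189 (adjusted p = 1.6e-08) and Pla2g7 by 2.25 ± 0.122 (adjusted p = 1.1e-08). Pcx, pyruvate carboxylase, which feeds the citric acid cycle with oxaloacetate, had 2.17, 2.13, 2.00 and 1.76, against −0.088, −0.18, −0.22 and −0.20, a difference of 2.19 ± 0.186 (adjusted p = 8.7e-07). Dnmt3l, a catalytically inactive partner of the de novo DNA methyltransferases known from germ cells, rose by 2.90 ± 0.263 (adjusted p = 1.8e-06), and the membrane-bound ubiquitin ligase Rnf183 by 3.04 ± 0.327 (adjusted p = 9.4e-06). Cdkn2b, an inhibitor of the G1 cyclin-dependent kinases, had 2.61, 2.94, 3.04 and 2.79, against 0.15, 0.071, −0.022 and 0.20, and rose by 2.74 ± 0.235 (adjusted p = 9.7e-07). Plpp3 and Rnf183 were called at smaller differences with normexp correction, 1.45 and 1.80.

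The protease inhibitor Serpinb1b rose by 2.46 ± 0.168 (adjusted p = 9.7e-08) and Gfi1b, a repressor needed for red cell and platelet formation, by 2.44 ± 0.385 (adjusted p = 0.00033). Gfi1b was lower in replicates a and b than in c and d, with 1.81, 1.78, 3.46 and 2.69 in replicates a to d of HemeAlb200 and −0.07, −0.27, 0.10 and 0.24 in those of Control. Its difference was 1.97 on the first scan day and 2.91 on the second. The membrane transporter Abca8b rose by 2.30 ± 0.188 (adjusted p = 6.3e-07) and Txlnb by 2.15 ± 0.227 (adjusted p = 7.6e-06). Serpinb1b, Gfi1b and Txlnb were no longer called after normexp correction, with differences of 0.56, 0.66 and 0.62. Eosinophil-associated ribonucleases, small secreted RNases that macrophages also make, were singled out after their values were seen. Ear2 had 1.66, 1.72, 1.42 and 1.72, against 0.11, 0.16, 0.16 and 0.16, and rose by 1.48 ± 0.0733 (adjusted p = 4.8e-09). Ear10, Rnase2a and Rnase2b were also called, at 1.31 ± 0.147 (adjusted p = 1.5e-05), 1.33 ± 0.12 (adjusted p = 1.7e-06) and 1.79 ± 0.244 (adjusted p = 8.7e-05), and Ear1 at 1.27 ± 0.368 (adjusted p = 0.022). None of these 5 ribonucleases was called with normexp correction, where their differences were between 0.129 and 0.454, and the call of Ear1 also ended without HemeAlb200 replicate a, b or d or Control replicate d. These genes are nearly identical in sequence, so that their probes may not tell them apart.

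Thbs1 had the largest decrease of all called genes. It encodes thrombospondin 1, a secreted matrix protein that binds CD36 and activates latent TGF-beta. Its log2 ratios were −3.59, −3.78, −4.96 and −4.85 in HemeAlb200 replicates a to d, against 0.12, 0.054, −0.10 and −0.028 in Control, and it fell by 4.31 ± 0.442 (adjusted p = 5.9e-06). The difference was −3.77 on the first scan day and −4.84 on the second. Slco2b1, an uptake transporter for organic anions, had −2.80, −2.68, −2.95 and −2.42, against 0.048, 0.078, 0.18 and 0.16, and fell by 2.83 ± 0.144 (adjusted p = 6.2e-09) and by less with normexp correction (−1.63). Ctla2b, an inhibitor of cysteine proteases, had −2.31, −2.31, −2.23 and −2.39 in HemeAlb200 and −0.051, −0.15, −0.014 and −0.10 in Control, and fell by 2.23 ± 0.0835 (adjusted p = 4.7e-10). Enc1, an actin-binding protein, fell by 1.76 ± 0.0753 (adjusted p = 9.6e-10), and Pde3b, a phosphodiesterase that degrades cyclic AMP, by 1.79 ± 0.133 (adjusted p = 2.4e-07).

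Sterol metabolism moved in both of its branches. Of 26 measured genes of cholesterol synthesis and uptake, 9 were called higher and 0 lower (34.6% and 0%, against 2.05% and 0.98% of all genes). At any size 21 were higher and 1 lower at an adjusted p under 0.05 (80.8% and 3.85%, against 10.8% and 12%). The median difference over the list was 0.812, against −0.022 over all genes. Sqle, which oxidises squalene, had 1.07, 1.17, 1.65 and 1.58 in HemeAlb200, against −0.22, −0.037, −0.23 and −0.23 in Control, a difference of 1.55 ± 0.203 (adjusted p = 6.2e-05). The lanosterol demethylase Cyp51 had 1.55, 1.37, 2.02 and 1.85, against 0.17, 0.054, 0.12 and 0.18, a difference of 1.57 ± 0.122 (adjusted p = 4e-07). Fdps, which makes farnesyl diphosphate, had 1.01, 0.93, 1.17 and 1.19, against −0.056, −0.051, −0.002 and −0.044, a difference of 1.11 ± 0.0683 (adjusted p = 3.4e-08). In these 3 genes each HemeAlb200 array lay above each Control array. Cyp51 was no longer called with normexp correction (0.81).

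The isoprenoid enzyme Idi1 rose by 1.36 ± 0.208 (adjusted p = 0.00025). Msmo1 and Hsd17b7, which act after Cyp51, rose by 1.02 ± 0.0918 (adjusted p = 1.6e-06) and 1.07 ± 0.169 (adjusted p = 0.00032). Both calls ended with normexp correction (0.98 and 0.51) and without HemeAlb200 replicate c, and that of Msmo1 also without replicate d. Replicates c and d were higher than a and b for Idi1, whose HemeAlb200 ratios were 0.91, 0.94, 1.62 and 1.62, against −0.14, −0.11, −0.05 and −0.065 in Control. Srebf2, which encodes the SREBP factor of this pathway, differed by −0.18 ± 0.048 (adjusted p = 0.016) and was the 1 member below 0 at that threshold, although a further probe of Srebf2 differed by 0.705. With replicates a and b alone 7 members were called, with c and d alone 11, and with normexp correction 5. The SREBP element was found in 0 of 22 RefSeq promoter windows of these genes, the 250 bases before the start, and in 22 of 13000 windows over all genes tested (0.169%).

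Several genes of cholesterol efflux fell. Of 16 measured LXR targets and efflux genes, 1 was called higher and 4 lower (6.25% and 25%, against 2.05% and 0.98% of all genes), with a median of −0.104. Apoc1, an apolipoprotein, had −1.82, −1.96, −2.65 and −2.37 in HemeAlb200, against 0.32, 0.14, 0.21 and 0.45 in Control, and fell by 2.48 ± 0.196 (adjusted p = 4.7e-07). Apoe, the apolipoprotein macrophages secrete with cholesterol, had −1.12, −1.29, −1.81 and −1.58, against −0.017, −0.041, 0.066 and 0.018, and fell by 1.46 ± 0.132 (adjusted p = 1.7e-06). Abca1, the exporter that loads cholesterol onto apolipoprotein, had −1.50, −1.62, −1.67 and −1.59, against 0.13, 0.055, 0.011 and −0.001, and fell by 1.64 ± 0.187 (adjusted p = 1.6e-05). For all 3 genes the groups did not overlap, although Apoc1 was no longer called after normexp correction (−0.83), and the second exporter Abcg1 fell by 1.16 ± 0.146 (adjusted p = 4.3e-05). The called increase was Ch25h, which makes 25-hydroxycholesterol, at 1.47 ± 0.407 (adjusted p = 0.017), with 0.83, 1.35, 2.24 and 2.22 in HemeAlb200 and 0.037, 0.41, 0.31 and 0.003 in Control. This call ended without HemeAlb200 replicate c (1.28) or d (1.28) and with normexp correction (0.76). The remaining members included the LXR genes themselves, Nr1h3 at 0.21 ± 0.179 (adjusted p = 0.46) and Nr1h2 at −0.03 ± 0.0469 (adjusted p = 0.71).

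**Figure D2:**
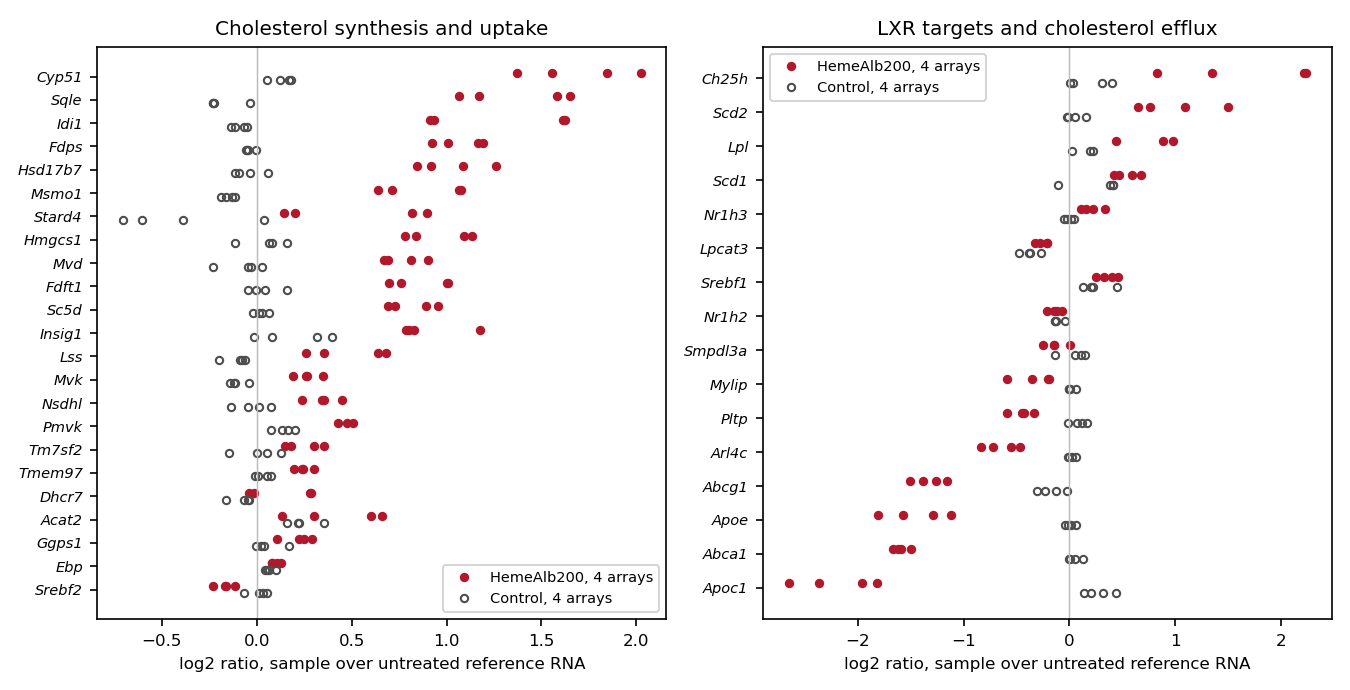
Log2 ratio of sample over untreated reference RNA (horizontal axes) for measured genes of cholesterol synthesis and uptake (left, 23 genes) and for LXR targets and efflux genes (right, 16 genes); each point is 1 array, filled for HemeAlb200 and open for Control. Most synthesis genes lie right of their Control points, and Apoc1, Abca1, Apoe and Abcg1 lie left of theirs.

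The interferon-stimulated genes were lower as a group and by a modest amount each. Of 66 measured, 0 were called higher and 7 lower (0% and 10.6%, against 2.05% and 0.98% of all genes). At any size, 0 were higher and 49 lower at an adjusted p under 0.05, against 10.8% and 12% of all genes. The median difference was −0.553, and in 55 members the 4 HemeAlb200 ratios lay below all 4 Control ratios, which was so for 19.7% of all genes. Usp18, which removes the ISG15 tag and restrains the interferon receptor, had −1.30, −1.33, −1.25 and −1.45 in HemeAlb200, against −0.18, −0.063, −0.027 and −0.10 in Control, and fell by 1.24 ± 0.113 (adjusted p = 1.8e-06). Rtp4 had −1.45, −1.49, −1.31 and −1.70, against −0.26, −0.33, −0.38 and −0.31, and fell by 1.17 ± 0.0863 (adjusted p = 2.4e-07). The antiviral genes Ifit1, with −1.17, −1.32, −0.84 and −1.56 against 0.014, −0.11, −0.23 and −0.13, and Ifit3, with −1.07, −1.06, −0.88 and −1.28 against −0.044, 0.054, 0.11 and 0.026, fell by 1.11 ± 0.167 (adjusted p = 0.00022) and 1.11 ± 0.0847 (adjusted p = 3.4e-07).

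Other called members were Ifit2 (−1.06 ± 0.134, adjusted p = 4.3e-05), Oasl2 (−1.08 ± 0.0729, adjusted p = 8e-08) and Rsad2 (−1.04 ± 0.101, adjusted p = 3.3e-06), which encodes the antiviral enzyme viperin. Below the 2-fold limit, the ubiquitin-like modifier Isg15 had −0.96, −0.99, −0.58 and −1.08, against −0.095, −0.19, −0.14 and −0.20, and Irf7, the factor that amplifies interferon production, had −0.72, −0.85, −0.93 and −0.80, against −0.23, −0.37, −0.35 and −0.29. Their differences were −0.75 ± 0.0985 (adjusted p = 9.4e-05) and −0.52 ± 0.0855 (adjusted p = 5e-04). Of the 4 members with a difference above 0, the guanylate-binding protein gene Gbp5 was farthest at 0.26 ± 0.17 (adjusted p = 0.31). The median over the list was −0.502 on the first scan day and −0.55 on the second. The number of calls ranged from 4 without HemeAlb200 replicate d to 9 without replicate c. The calls of Ifit1, Ifit2 and Rsad2 ended without HemeAlb200 replicate d and with normexp correction (−0.79, −0.81 and −0.90), and that of Ifit2 also without Control replicate b.

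**Figure D3:**
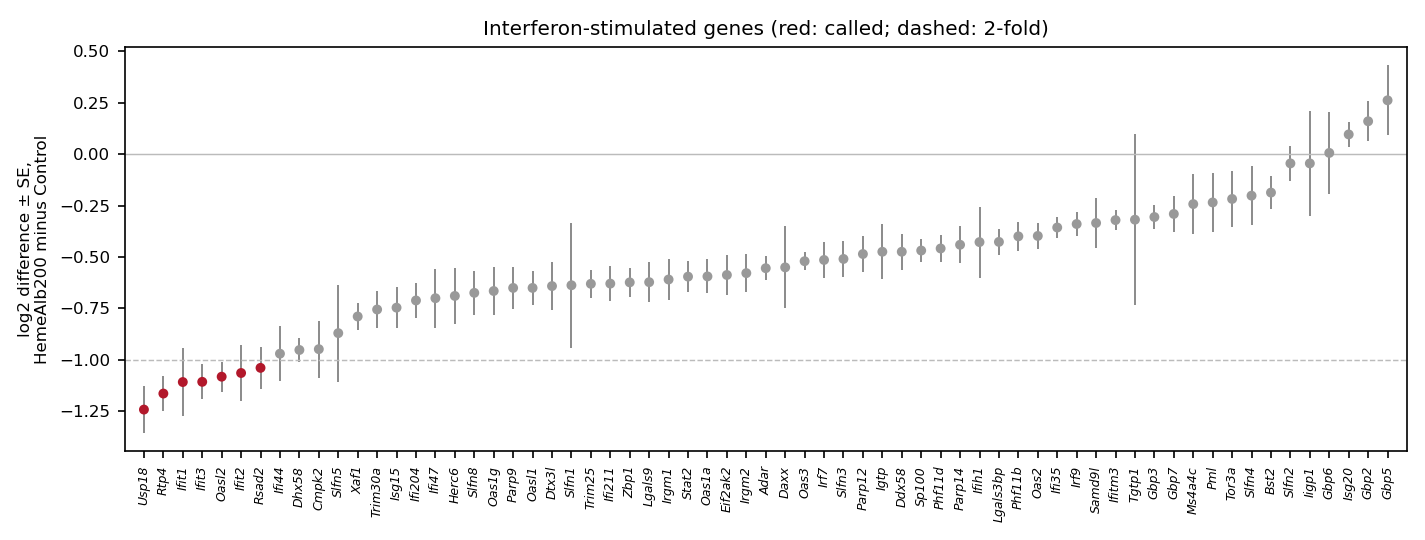
Difference between the mean log2 ratios of HemeAlb200 and Control (vertical axis, 4 arrays each) for 65 of the measured interferon-stimulated genes, in order of size along the horizontal axis; bars are the standard error of the fit and the dashed line marks a 2-fold decrease. Nearly all points lie below 0, and the 7 called genes, from Usp18 to Rsad2, lie just below the dashed line.

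The interferon-stimulated response element, which the interferon-activated factors bind, was searched on both strands in the 250 bases before each RefSeq transcription start (assembly GRCm38.p6). Promoter windows were matched by symbol for 54 of the interferon-stimulated genes, with 66 windows, and 24 of these windows (36.4%) held the element, against 372 of 13000 windows over all genes tested (2.86%). Among windows of all genes called lower it was 10 of 112 (8.93%), and of all genes called higher 4 of 277 (1.44%). The stretches below were chosen because they hold a match, and belong to 3 of the 7 called members and to Isg15. For the other called members, Usp18, Rtp4, Ifit2 and Oasl2, the window of the 5'-most start gave no match, or no window was available. Capitals mark every match on either strand.
Ifit1 (chr19:34640760-34640819, plus strand): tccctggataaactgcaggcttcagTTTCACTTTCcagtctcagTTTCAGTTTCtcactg
Ifit3 (chr19:34583348-34583407, plus strand): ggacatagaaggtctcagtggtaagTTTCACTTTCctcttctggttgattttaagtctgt
Rsad2 (chr12:26456538-26456597, minus strand): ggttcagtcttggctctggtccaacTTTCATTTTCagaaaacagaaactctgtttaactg
Isg15 (chr4:156200862-156200921, minus strand): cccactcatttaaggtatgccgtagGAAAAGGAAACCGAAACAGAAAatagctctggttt
Ifit1 has 2 separate matches and Isg15 overlapping ones, and Ifit3 and Rsad2 have a single match each in the stretch shown. A match describes the letters in the window and does not show binding in these cells.

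Part of the NF-kB pathway and its feedback rose. Of 38 measured, 10 were called higher and 0 lower (26.3% and 0%, against 2.05% and 0.98% of all genes). At any size 23 were higher (60.5%, against 10.8% of all genes) and 0 lower, and the median difference was 0.512. Sod2, the mitochondrial superoxide dismutase and a classical NF-kB target, had 1.79, 1.73, 2.09 and 1.97 in HemeAlb200, against 0.12, 0.079, 0.014 and 0.043 in Control, a difference of 1.83 ± 0.087 (adjusted p = 7.8e-09). Tnfaip3, the A20 protein that shuts NF-kB signalling down, had 1.52, 1.71, 1.80 and 1.66, against −0.18, 0.032, −0.20 and −0.001, a difference of 1.76 ± 0.238 (adjusted p = 8.1e-05). Nfkbia, the main inhibitor of NF-kB and itself switched on by it, had 1.22, 1.23, 1.41 and 1.31, against −0.082, −0.064, −0.029 and −0.077, a difference of 1.36 ± 0.108 (adjusted p = 5.2e-07). The arrays of each group lay close together and the groups far apart in these 3 genes. The others were the inhibitor Nfkbie (1.35 ± 0.114, adjusted p = 8.5e-07), the adaptors Traf1 (1.33 ± 0.151, adjusted p = 1.6e-05) and Traf3 (1.02 ± 0.0592, adjusted p = 2e-08), the RNase Zc3h12a that destroys cytokine messages (1.30 ± 0.135, adjusted p = 6.4e-06), the subunit Relb (1.13 ± 0.0441, adjusted p = 4.7e-10), Marcksl1 (1.05 ± 0.221, adjusted p = 0.0031) and the adhesion molecule Icam1 (1.01 ± 0.119, adjusted p = 2.3e-05). With normexp correction 5 of the list were called, and Zc3h12a was at 0.23. The calls of Marcksl1 and Icam1 also ended without HemeAlb200 replicate c or d.

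The NF-kB site, searched on both strands, was found in 3 of 44 promoter windows of the list (6.82%), in 8 of 277 windows of genes called higher (2.89%), in 0 of 112 of genes called lower, and in 59 of 13000 overall (0.454%). The promoter of Nfkbia, a called gene, is shown because it holds a match, which is in capitals.
Nfkbia (chr12:55492648-55492701, minus strand): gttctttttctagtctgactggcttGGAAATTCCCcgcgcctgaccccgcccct

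Inflammatory cytokines rose in a small number and not as a whole list. Of 25 measured cytokines and mediators, 6 were called higher and 0 lower (24% and 0%, against 2.05% and 0.98% of all genes), with a median of 0.064. Tnf had 1.90, 2.03, 2.39 and 2.20 in HemeAlb200, against 0, −0.088, 0.09 and 0.081 in Control, a difference of 2.11 ± 0.136 (adjusted p = 6.1e-08). The acute phase gene Saa3 had 1.42, 1.15, 2.47 and 2.03, against 0.23, −0.08, 0.64 and 0.009, a difference of 1.57 ± 0.292 (adjusted p = 0.0015). Tnfsf15, a cytokine of the TNF family, rose by 1.29 ± 0.24 (adjusted p = 0.0013). Il1b, with 0.055, −0.29, 0.27 and 0.013 in HemeAlb200 and 0.11, −0.066, 0.19 and 0.22 in Control, differed by −0.10 ± 0.11 (adjusted p = 0.57), and Nos2 by 0.064 ± 0.167 (adjusted p = 0.83). Il6 and the prostaglandin synthase Ptgs2 were above background on 0 Control arrays and on 3 and 2 HemeAlb200 arrays. Set against the lowest signal well above background, with the deposited subtraction, Il6 was at least 2.43-fold higher (adjusted p = 0.015) and Ptgs2 at least 1.1-fold (adjusted p = 0.00032). With normexp correction 2 of the list were called. Tnf was 1 of them at 1.22, and Il6 (0.30), Ptgs2 (0.13), Saa3 and Tnfsf15 were not called.

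Of 23 chemokines, 4 were called higher and 3 lower (17.4% and 13%, against 2.05% and 0.98% of all genes). The neutrophil attractants Cxcl1, Cxcl2 and Cxcl3 were among those that rose. Cxcl1 had 3.01, 2.46, 3.90 and 3.34 in HemeAlb200, against 0, 0.14, 0.36 and 1.31 in Control, where 1 array was above background, and rose by 2.73 ± 0.452 (adjusted p = 5e-04). Cxcl2 had 2.63, 2.76, 4.08 and 3.33, against 0.034, −0.26, 1.86 and 1.45, and rose by 2.43 ± 0.63 (adjusted p = 0.012). Cxcl3 was above background on 0 of 4 Control arrays, and with the deposited subtraction at least 9.11-fold higher in HemeAlb200 (adjusted p = 0.00015). For all 3 genes each HemeAlb200 array was above each Control array, but none was called after normexp correction, where the differences were 0.25, 0.32 and 0.51. Ccl5 rose by 1.13 ± 0.151 (adjusted p = 1e-04), a call that ended without HemeAlb200 replicate c (0.969). The monocyte attractants Ccl7, with −3.50, −2.91, −1.39 and −1.24 against 0.10, −0.041, −0.013 and 0.098, and Ccl2, with −2.36, −1.83, −0.73 and −0.52 against 0.19, 0.23, 0.23 and 0.23, fell by 2.30 ± 0.598 (adjusted p = 0.012) and 1.58 ± 0.424 (adjusted p = 0.016). Both fell more on replicates a and b, and for Ccl7 the difference was −3.24 on the first scan day and −1.36 on the second, and −1.37 with normexp correction, where it was not called. Cxcl14 fell by 1.15 ± 0.0644 (adjusted p = 1.4e-08). Of 39 chemokine and cytokine receptors, 1 was called higher and 2 lower (2.56% and 5.13%, against 2.05% and 0.98% of all genes). The share higher was thus near that of all genes. The increase was Fas, the death receptor (1.60 ± 0.136, adjusted p = 9.2e-07). Cxcr4, the receptor for CXCL12, had −1.10, −1.48, −2.07 and −1.81, against 0.068, 0.31, 0.095 and 0.025, and fell by 1.74 ± 0.18 (adjusted p = 6.4e-06). The decoy receptor Il1r2 fell by 1.53 ± 0.177 (adjusted p = 1.9e-05), a call that ended with normexp correction.

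**Figure D4:**
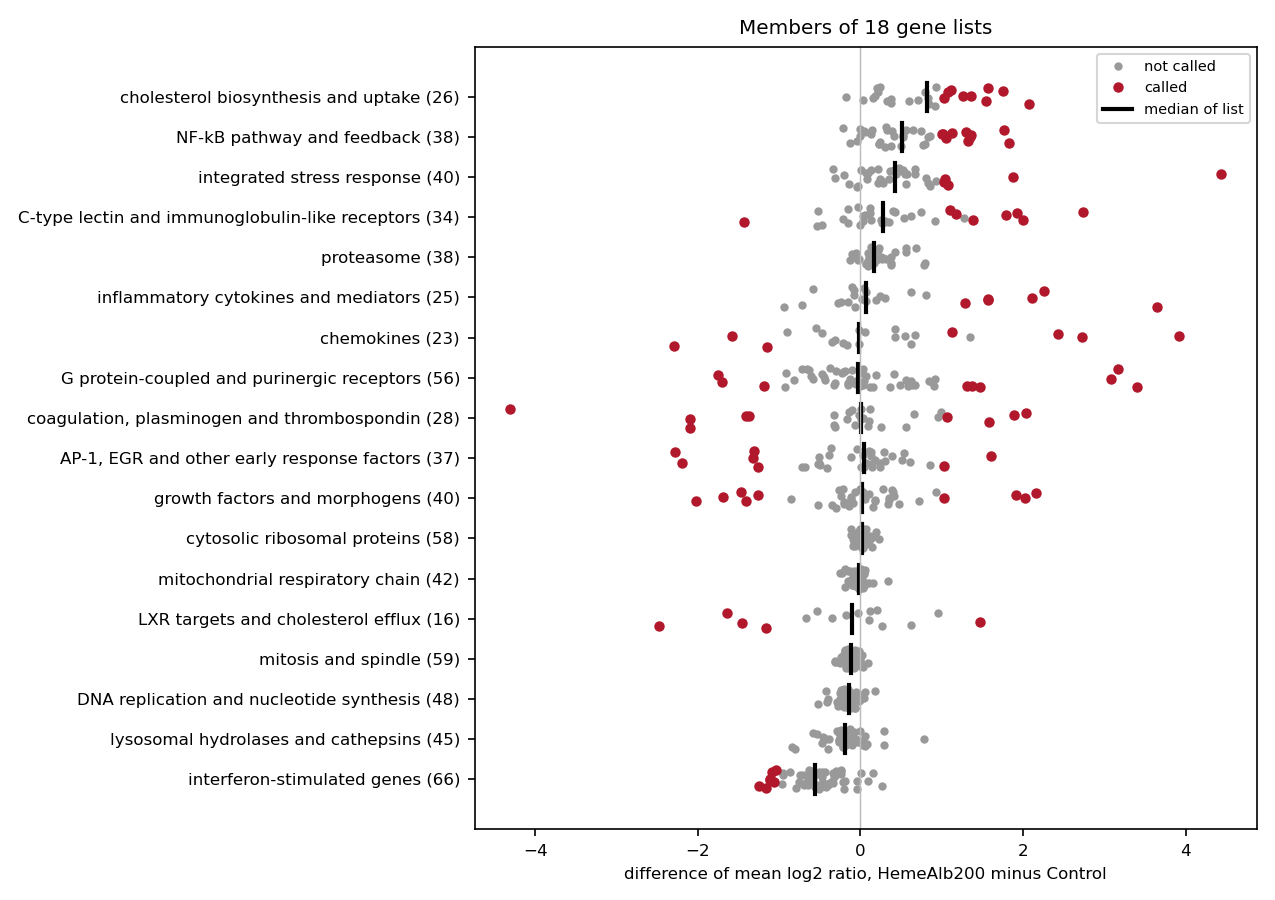
Difference between the mean log2 ratios of HemeAlb200 and Control (horizontal axis, 4 arrays each) for the measured members of 18 gene lists (rows, number of members in brackets); each point is 1 gene, red where called, and black bars are list medians. The medians run from 0.812 for cholesterol synthesis and uptake to −0.553 for interferon-stimulated genes, while cytokines, chemokines, receptors and growth factors have medians near 0 with called members far out.

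Growth factors and morphogens changed in both directions, with 4 of 40 called higher and 5 lower (10% and 12.5%, against 2.05% and 0.98% of all genes). Vegfa, the main driver of blood vessel growth, had −1.78, −1.88, −1.87 and −1.88 in HemeAlb200, against 0.097, 0.20, 0.18 and 0.20 in Control, and fell by 2.02 ± 0.135 (adjusted p = 7.3e-08). A further probe of Vegfa fell by 2.82. Bmp2 had −1.58, −1.74, −1.57 and −1.95, against −0.23, 0.05, 0.021 and 0.063, and fell by 1.69 ± 0.31 (adjusted p = 0.0012), a call that ended with normexp correction (−0.38). Hgf, Tgfb3 and Pdgfa, which act on epithelium, fibroblasts and smooth muscle, fell by 1.41 ± 0.181, 1.47 ± 0.0838 and 1.25 ± 0.0801 (adjusted p = 5e-05, 1.7e-08 and 5.1e-08). The Notch ligand Jag1 had 2.04, 2.18, 2.57 and 2.57, against 0.12, 0.52, 0.24 and 0.38, and rose by 2.03 ± 0.131 (adjusted p = 6.1e-08). The guidance factor Sema3c rose by 1.92 ± 0.167 (adjusted p = 1.2e-06), and Gdf15, a stress-induced cytokine of the TGF-beta family, by 1.02 ± 0.113 (adjusted p = 1.2e-05). Other genes of the Notch pathway, picked after their values were seen, fell: the ligand Jag2 by 1.25 ± 0.279 (adjusted p = 0.0047), the receptor Notch4 by 1.12 ± 0.0663 (adjusted p = 2.5e-08) and the target Hey1 by 1.33 ± 0.127 (adjusted p = 2.9e-06). With normexp correction 2 of the list were called higher and 2 lower. Hgf, Tgfb3, Gdf15, Jag2, Notch4 and Hey1 were then not called, at −0.63, −0.85, 0.95, −0.49, −0.80 and −0.23, and the call of Gdf15 also ended without HemeAlb200 replicate a.

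Genes of clotting and fibrin breakdown also split, with 4 of 28 called higher and 5 lower (14.3% and 17.9%, against 2.05% and 0.98% of all genes). Thbs1 led the decreases. Plau, the urokinase that activates plasminogen, had −2.54, −2.30, −1.09 and −1.15 in HemeAlb200, against 0.38, 0.47, 0.26 and 0.19 in Control, and fell by 2.09 ± 0.353 (adjusted p = 0.00058). Replicates a and b were lower than c and d, and the difference of Plau was −2.85 on the first scan day and −1.34 on the second, and −0.92 with normexp correction, where it was not called. Tgm2, a transglutaminase that crosslinks proteins, had −2.23, −2.22, −2.07 and −2.13, against −0.064, −0.13, −0.053 and −0.018, and fell by 2.10 ± 0.105 (adjusted p = 5.2e-09). The anticoagulant receptor thrombomodulin (Thbd) fell by 1.41 ± 0.0819 (adjusted p = 2e-08) and the ATP-degrading ectoenzyme Entpd1 by 1.37 ± 0.198 (adjusted p = 0.00016). The protein C receptor Procr, with 2.31, 1.99, 1.91 and 1.82 against 0.13, 0.11, 0.067 and 0.17, rose by 1.88 ± 0.127 (adjusted p = 8e-08), and the protease inhibitors Serpinb9 and Serpinf1 by 1.58 ± 0.139 (adjusted p = 1.2e-06) and 1.07 ± 0.282 (adjusted p = 0.013). With normexp correction 2 of the list were called higher and 3 lower, and Entpd1 (−0.66) and Serpinf1 (0.12) were not called. The call of Serpinf1 also ended without HemeAlb200 replicate a or Control replicate a. Serpinb2, an inhibitor of urokinase, was above background on 2 HemeAlb200 and 0 Control arrays and its ratios overlapped, so that no fold is given.

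Of 59 matrix, metalloproteinase and adhesion genes, 5 were called higher and 5 lower (8.47% each, against 2.05% and 0.98% of all genes). The counts were 0 and 2 after normexp correction and 1 and 2 with no background subtraction. The integrin chains Itgb5, which helps to bind apoptotic cells, Itga6 and Itga9 fell by 1.42 ± 0.0711, 1.16 ± 0.14 and 1.15 ± 0.216 (adjusted p = 1.1e-08, 2.8e-05 and 0.0014), where Itgb5 had no usable spot on Control replicate a. The membrane metalloproteinase Mmp14 was above background on 0 Control arrays and with the deposited subtraction at least 1.94-fold higher (adjusted p = 0.0017). The collagen gene Col14a1 fell by 1.22 ± 0.158 (adjusted p = 5.7e-05) on its brighter probe and by 0.523 on the other. With normexp correction Itga9, Mmp14 and Col14a1 were not called (−0.052, 0.17 and −0.30), and the call of Itga9 also ended without HemeAlb200 replicate d. Of 4 measured markers of fibroblasts and stroma, 2 were called higher (50%, against 2.05% of all genes) and 0 lower, and 0 were called with normexp correction. Smooth muscle actin Acta2 was among the 2 (1.21 ± 0.0772, adjusted p = 5.1e-08, and 0.52 with normexp correction). Col1a2 went the other way at −0.51 and was not called. The collagen and stromal markers given above stayed below background. The part of these markers in the matrix and growth factor results was not tested.

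Early response factors mostly fell where they changed. Of 37 measured, 2 were called higher and 5 lower (5.41% and 13.5%, against 2.05% and 0.98% of all genes), and with normexp correction 0 and 3. Nr4a1, an orphan nuclear receptor and immediate early gene, had −2.58, −2.39, −1.64 and −2.12 in HemeAlb200, against 0.096, 0.14, 0.065 and 0.088 in Control, and fell by 2.28 ± 0.29 (adjusted p = 4.5e-05). The related Nr4a2, the RNA-binding factor Zfp36l1 and Id1, an inhibitor of differentiation factors, fell by 1.31 ± 0.142, 1.33 ± 0.0807 and 1.26 ± 0.299 (adjusted p = 1e-05, 3.2e-08 and 0.007). The called increases, Fosl1 (1.60 ± 0.343, adjusted p = 0.0035) and Myc (1.03 ± 0.319, adjusted p = 0.03), were larger in replicates c and d, with HemeAlb200 ratios of 0.80, 0.69, 1.92 and 2.01 for Fosl1 and 0.30, 0.69, 1.86 and 1.44 for Myc. From a and b alone Fosl1 differed by 0.99 and Myc by 0.36, and neither was called with normexp correction (0.32 and 0.62). The call of Fosl1 was kept whichever array was left out, with differences between 1.39 and 1.83. The call of Myc ended without HemeAlb200 replicate c or d or Control replicate a, c or d, with differences between 0.768 and 1.05. The 28 circadian and glucocorticoid-regulated genes had 0 called higher and 2 lower (0% and 7.14%, against 2.05% and 0.98% of all genes). The decreases were Zbtb16 (−1.53 ± 0.203, adjusted p = 6.9e-05) and Usp2 (−1.15 ± 0.119, adjusted p = 6.6e-06). Neither was called with normexp correction (−0.29 and −0.75), nor was Nr4a2 (−0.40).

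Receptors for antibodies, complement and dying cells changed singly. Fcgr1, the high-affinity receptor for immunoglobulin G and a common macrophage marker, had −1.52, −1.49, −1.59 and −1.78 in HemeAlb200, against 0.038, −0.002, −0.095 and 0.007 in Control, and fell by 1.58 ± 0.0602 (adjusted p = 4.7e-10). The complement component C3 had 1.38, 1.32, 1.35 and 1.28, against −0.05, −0.11, −0.049 and −0.082, and rose by 1.41 ± 0.0496 (adjusted p = 5.2e-10). Both differences were many times the spread within their groups. Mertk, a receptor for apoptotic cells, fell by 1.04 ± 0.175 (adjusted p = 0.00056), a call that ended without HemeAlb200 replicate c (−0.896), on the first scan day (−0.86), with normexp correction (−0.80) and with no subtraction (−0.954). The scavenger receptor Marco rose by 1.46 ± 0.292 (adjusted p = 0.0022) and the lipoprotein receptor Lrp8 by 1.70 ± 0.265 (adjusted p = 3e-04), which was not called with normexp correction (0.75). Of the 34 measured genes of macrophage identity, 2 were called higher and 2 lower (5.88% each, against 2.05% and 0.98% of all genes), and 2 and 1 with normexp correction. The transcription factor genes Tfec (1.45 ± 0.105, adjusted p = 1.8e-07) and Cebpd (1.20 ± 0.197, adjusted p = 0.00046) rose, and Fcgr1 and Mertk fell. Among genes of alternative activation, 4 of 22 were called higher and 4 lower (18.2% each, against 2.05% and 0.98% of all genes). The counts were 1 and 2 with normexp correction, and at most 3 higher whichever array was left out. Clec10a rose, whereas Arg1, arginase, had −1.10, −1.44, −1.55 and −1.24, against −0.042, 0.42, 0.19 and 0.29, and fell by 1.55 ± 0.353 (adjusted p = 0.0053), a call that ended with normexp correction. The list also holds Tfrc, the transferrin receptor, and Tgm2, which fell. None of the 18 measured MHC class II and costimulatory genes and none of the 23 MHC class I genes was called.

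Transport genes held some of the largest single changes. Slc39a4, a zinc importer, had 2.19, 2.07, 2.14 and 1.97 in HemeAlb200, against −0.059, −0.054, −0.042 and −0.036 in Control, a difference of 2.14 ± 0.0891 (adjusted p = 7e-10), and was the 1 gene called higher of 32 zinc, copper and metallothionein genes. The magnesium-associated Cnnm2 was the 1 called lower (−1.18 ± 0.149, adjusted p = 4.2e-05). Each is 3.12% of that list, against 2.05% called higher and 0.98% called lower over all genes. Slc6a9, a glycine transporter, had 2.35, 2.31, 2.13 and 2.08, against 0.047, 0.073, −0.004 and −0.001, and rose by 2.19 ± 0.234 (adjusted p = 8.9e-06). Of 30 amino acid transporters, 5 were called higher and 0 lower (16.7% and 0%, against 2.05% and 0.98% of all genes). With Slc6a9 and the cystine importer Slc7a11, an NRF2 target, these were the arginine transporter Slc7a1 (1.08 ± 0.173, adjusted p = 0.00039), the leucine transporter Slc7a5 (1.04 ± 0.214, adjusted p = 0.0025) and the betaine transporter Slc6a12 (1.12 ± 0.319, adjusted p = 0.02). The calls of Slc7a1 and Slc7a5 ended without HemeAlb200 replicate c or d, and that of Slc6a12 without HemeAlb200 replicate a (0.985) or Control replicate b (1.02). With the mean over a gene's probes in place of the brightest probe, Slc7a5 differed by 0.493 and was not called. With normexp correction 2 of the list were called, and Slc7a5 (0.47) and Slc6a12 (0.15) were not, nor was Cnnm2 (−0.95). Slc22a23, an orphan carrier, had 5.66, 4.18, 5.79 and 4.14, against 0.28, −0.12, −0.019 and 1.06, a difference of 4.64 ± 0.445 (adjusted p = 3e-06), with 2 of 4 Control arrays above background. It was smaller than that of Acod1 with normexp correction, at 1.17 for Slc22a23 and 2.80 for Acod1, and with no subtraction, at 2.47 and 3.44. Of 43 sugar, nucleoside, anion and drug transporters, 7 were called higher and 2 lower (16.3% and 4.65%, against 2.05% and 0.98% of all genes), and 5 and 1 with normexp correction. Among the increases were the drug exporters Abcc5 (1.77 ± 0.0723, adjusted p = 5.9e-10) and Abcc1 (1.75 ± 0.0877, adjusted p = 5.2e-09) and the glucose transporter Slc2a1 (1.13 ± 0.0782, adjusted p = 1.1e-07).

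Metabolic lists changed through few members. Of 45 genes of glycolysis, hypoxia and the pentose phosphate pathway, 3 were called higher and 2 lower (6.67% and 4.44%, against 2.05% and 0.98% of all genes). The increases were Slc2a1 and the pentose phosphate enzymes G6pdx (1.11 ± 0.0906, adjusted p = 6.2e-07) and Pgd (1.08 ± 0.0901, adjusted p = 2.8e-06, with HemeAlb200 replicate a left out as an outlier spot), and the decreases were the hypoxia-responsive Vegfa and Ankrd37 (−1.62 ± 0.0988, adjusted p = 3.2e-08). Gbe1, the glycogen branching enzyme, was picked after its values were seen and had 2.02, 2.03, 2.05 and 1.84, against 0.09, 0.20, 0.054 and 0.073, a difference of 1.88 ± 0.0728 (adjusted p = 4.7e-10). Among lipid mediator enzymes, Pla2g4a, which releases arachidonic acid, rose by 1.16 ± 0.325 (adjusted p = 0.018), a call that ended without HemeAlb200 replicate c (1) or d (1.03), and Alox15 differed by 1.31 ± 0.447 (adjusted p = 0.048), with 1 of 4 Control arrays above background. The call of Alox15 ended whichever array was left out (adjusted p from 0.063 to 0.13) and with normexp correction (0.11). Of 40 genes of the integrated stress response, a programme that cells turn on when amino acids or heme run short, 5 were called higher and 0 lower (12.5% and 0%, against 2.05% and 0.98% of all genes). The median was 0.422, and 23 were higher and 3 lower at any size (57.5% and 7.5%, against 10.8% and 12%). The lists overlap, and the largest difference here, 4.44, was that of the NRF2 target Slc7a11, also counted among the amino acid transporters. Chac1, a glutathione-degrading enzyme and marker of this response, had 1.61, 1.88, 2.34 and 2.14, against 0.043, 0.15, 0.12 and 0.12, and rose by 1.88 ± 0.157 (adjusted p = 7.7e-07). The count of 5 fell to 3 without HemeAlb200 replicate c, to 3 without replicate d and to 1 with normexp correction, where Chac1 was at 0.98 and not called.

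None of 58 cytosolic ribosomal protein genes was called, with differences from −0.12 to 0.23, and none of 42 respiratory chain genes, with differences from −0.25 to 0.34. Of 38 proteasome subunits 0 were called, but 14 were higher (36.8%, against 10.8% of all genes) and 0 lower at any size, with a median of 0.166. Psma5 had 0.61, 0.69, 0.71 and 0.64 in HemeAlb200, against −0.14, −0.095, −0.12 and −0.11 in Control, and rose by 0.78 ± 0.0489 (adjusted p = 4.5e-08), and Psmd11 by 0.56 ± 0.0559 (adjusted p = 4.1e-06). Of lysosomal hydrolases and cathepsins 0 of 45 were called, with 1 higher and 18 lower (40%, against 12% of all genes) at any size and a median of −0.184. The asparagine-specific protease Lgmn fell by 0.85 ± 0.0805 (adjusted p = 2.8e-06). Lipa, which frees cholesterol from lysosomes, was the member that was higher (0.78 ± 0.162, adjusted p = 0.0027). Of 59 genes of mitosis, 0 were called and 6 were lower at any size (10.2%, median −0.118). Of 48 genes of DNA replication 0 were called and 4 were lower (8.33%, median −0.146). Both shares were below the 12% of all genes that were lower at any size. In 26 of the mitosis and 21 of the replication genes, however, all HemeAlb200 ratios lay below all Control ratios, and in 0 above. Over all genes 19.7% lay below in this way. When only the HemeAlb200 and Control arrays were fitted, 20 of 48 replication genes were lower at any size, and 4212 of 12759 genes differed in either direction. Heat shock genes had 0 of 45 called and a median of 0.069, and chaperones of the endoplasmic reticulum 0 of 33 and 0.06.

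The NRF2 and iron genes are given for scale only. Of 52 measured NRF2 targets 26 were called higher and 0 lower (50% and 0%, median 0.99). Of 43 genes of heme and iron handling 7 were called higher and 1 lower (16.3% and 2.33%). Over all genes these shares were 2.05% and 0.98%. Spic, a transcription factor of red pulp macrophages that recycle iron, had 5.79, 5.69, 5.69 and 5.68 in HemeAlb200, against −0.15, −0.24, 0.07 and 0.033 in Control, a difference of 5.78 ± 0.209 (adjusted p = 4.7e-10). This was the largest of all genes with the deposited subtraction and the third with normexp correction (3.48), after the iron exporter Slc40a1 (4.08) and heme oxygenase Hmox1 (3.78). Tfrc, which imports transferrin iron, had −4.24, −4.13, −3.81 and −3.88, against 0.065, 0.046, 0.053 and −0.011, and fell by 4.05 ± 0.101 (adjusted p = 7.2e-12), with −1.52 after normexp correction. The core of the antioxidant response element, searched as TGACNNNGC on both strands, was in 18 of 59 promoter windows of the NRF2 targets (30.5%), 39 of 277 windows of all genes called higher (14.1%), 18 of 112 of those called lower (16.1%) and 11.6% of windows overall. Of the 386 called genes, 179 were members of a list and the rest were in none.

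For 25 genes called higher no Control array was well above background, and for 4 called lower no HemeAlb200 array was, so that only bounds can be given. Besides Cxcl3, the largest bounds belonged to the monocarboxylate carrier Slc16a9, which was at least 6.58-fold higher (adjusted p = 3.9e-05), and the protein phosphatase Ppm1n, at least 6.37-fold higher (adjusted p = 2.9e-05). The protease inhibitor Wfikkn2 was higher by at least 5.11-fold (adjusted p = 2.9e-05), and Tmem179 at least 4.46-fold (adjusted p = 6e-04). Ceacam19, the ubiquitin ligase Trim9 and the exchange factor Rasgrf1 were at least 4.33-, 4.23- and 4.07-fold higher (adjusted p = 3.9e-05, 0.0015 and 0.00052). Each of them was above background on 4 of 4 HemeAlb200 arrays. With Cxcl3 these make 8 genes. Their bounds hold for the deposited subtraction only, and each p-value is that of the ratio difference in the limma fit. With normexp correction none of the 8 was called, and the log2 differences lay between 0.246 (Trim9) and 0.509 (Cxcl3). With no subtraction they lay between 0.83 (Ceacam19) and 1.398 (Cxcl3). For each gene both were smaller than its bound. Over all 39429 non-control probes, taken one by one with no filter, 369 were called higher (0.936%) and 169 lower (0.429%). Among 4771 probes above background that carry no gene name here, 78 were called (1.63%), 54 higher (1.13%) and 24 lower (0.503%).

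Between heme-albumin at 200 µM and at 50 µM, both at 8 h, 106 genes were called (0.831%), 81 higher (0.635%) and 25 lower (0.196%) at the higher dose. Of the 20 largest increases, 17 were called higher than at 50 µM, and of the 15 largest decreases 9 were called lower, but these genes were chosen for their change at 200 µM, so that the counts are a description. Clec10a had 3.15, 3.41, 2.92 and 2.66 at 200 µM, against 1.26, 1.42, 1.41 and 1.24 at 50 µM, a difference of 1.70 ± 0.143 (adjusted p = 4.5e-06). Slc39a4 had 2.19, 2.07, 2.14 and 1.97 at 200 µM, against 1.21, 0.89, 0.85 and 0.90 at 50 µM, a difference of 1.13 ± 0.0891 (adjusted p = 2.8e-06). Thbs1 had −3.59, −3.78, −4.96 and −4.85, against −0.98, −1.29, −2.40 and −2.38, a difference of −2.53 ± 0.442 (adjusted p = 0.0023), and Abca1 had −1.50, −1.62, −1.67 and −1.59, against −0.26, −0.22, −0.37 and −0.26, a difference of −1.31 ± 0.187 (adjusted p = 0.00044). In each of these genes the 2 doses did not overlap. Of the interferon-stimulated genes, 0 of 66 were called between the doses by limma, and Usp18 had −1.30, −1.33, −1.25 and −1.45 at 200 µM, against −0.94, −1.12, −1.26 and −0.93 at 50 µM, a difference of −0.27 ± 0.113 (adjusted p = 0.19). Over the 26 cholesterol genes the median difference between doses was 0.499, and Cyp51 had 1.55, 1.37, 2.02 and 1.85 at 200 µM, against 0.62, 0.73, 0.85 and 0.80 at 50 µM, a difference of 0.95 ± 0.122 (adjusted p = 0.00018).

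**Figure D5:**
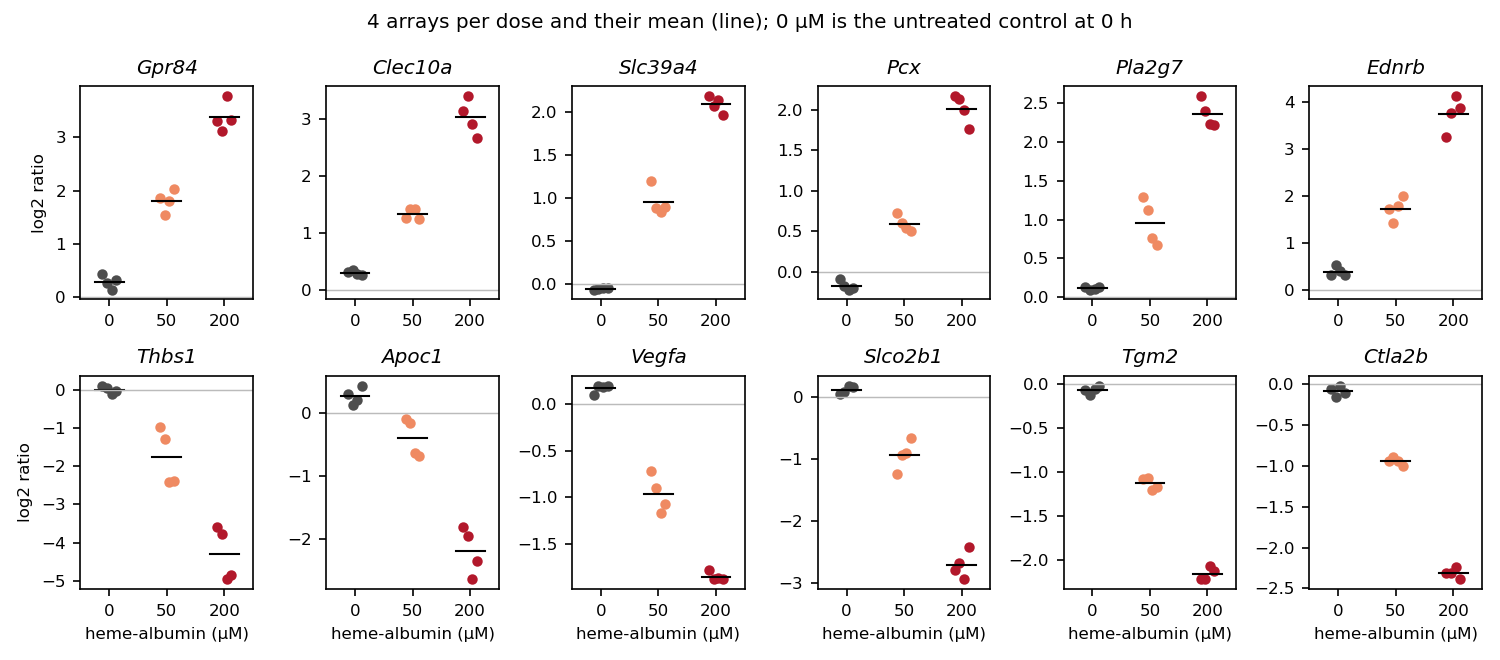
Log2 ratio of sample over untreated reference RNA (vertical axes, scale differs by panel) in 12 of the genes with the largest changes at 0 µM (untreated, 0 h), 50 µM and 200 µM heme-albumin (8 h); points are the 4 arrays of each dose and lines their means. The 3 doses do not overlap in these genes, with 200 µM farthest from the untreated cells. The 12 genes were picked by hand, and other genes can differ: 17 of the 20 largest increases were called higher and 9 of the 15 largest decreases lower than at 50 µM.

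Against LPS at the same 8 h, 3869 genes were called (30.3%), 2138 higher (16.8%) and 1731 lower (13.6%) after heme-albumin at 200 µM. All 25 measured cytokines and mediators were called lower after heme-albumin than after LPS, with a median difference of −3.74, and Tnf differed by −2.05 ± 0.136 (adjusted p = 2.9e-09). Of the 66 interferon-stimulated genes 64 were called lower, and Usp18 had −1.30, −1.33, −1.25 and −1.45 after heme-albumin, against 3.86, 3.83, 4.37 and 4.26 after LPS. The NF-kB list had 31 of 38 called lower and a median difference of −2.12. Cholesterol genes stood the other way, 13 of 26 called higher and 0 lower, with Cyp51 at 1.55, 1.37, 2.02 and 1.85 after heme-albumin, against −0.81, −0.59, −0.68 and −0.38 after LPS. Of 59 genes of mitosis, 57 were called higher and 1 lower after heme-albumin than after LPS. Against Control, their median was −2.941 after LPS, with 57 called lower and 1 higher, and −0.118 after heme-albumin at 200 µM, with 0 called. Against the shared untreated cells, the differences at 200 µM and after LPS were −4.31 and 2.19 for Thbs1, −2.30 and 5.22 for Ccl7, −1.58 and 3.14 for Fcgr1, and 2.74 and −0.66 for Clec10a. The direct differences between heme-albumin and LPS were −6.50 ± 0.442 (adjusted p = 3.7e-09) for Thbs1, −7.52 ± 0.598 (adjusted p = 2.2e-08) for Ccl7, −4.72 ± 0.0602 (adjusted p = 9.9e-17) for Fcgr1 and 3.40 ± 0.143 (adjusted p = 1.6e-11) for Clec10a.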

How the data were processed

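RNA of 16 macrophage cultures was hybridised to Agilent two-colour mouse arrays, with the sample in Cy5 (red) and untreated reference RNA in Cy3 (green). Per the file headers, the authors ran Agilent Feature Extraction 10.7.3.1, which subtracted background, normalised the dyes and wrote the deposited log10 ratio of red over green. The deposited intensity columns gave the background flags and, for genes below background, the bounds. The authors' series table held the same log10 ratios. Each ratio was converted to log2, spots with outlier signals were left out, and repeated spots of a probe were averaged. Control spots were left out. A probe entered the fit if some group had it well above background in red on each of its 4 arrays (21458 probes), and the brightest probe stood for each gene, which gave 12759 genes. Group means over 16 arrays were fitted with limma 3.58.1 (R 4.3.3) with moderated errors and Benjamini-Hochberg adjustment over 12759 genes. The fit was tested on simulated data.

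A bound sets the mean of the bright group against the lowest signal well above background on the dim group's arrays. It is open to dye bias, as no dyes were swapped. It holds for the deposited subtraction only, and the p-value beside it is that of the ratio difference. Named genes were the 20 largest increases and 15 largest decreases among called, non-overlapping genes measured on all 8 arrays outside the NRF2 and iron lists, up to 4 members of each of 57 lists, and up to 8 dim genes. Members and lists were chosen with earlier results of these data known. Genes on chromosome 18 were counted and are not named in the text, and results on some other genes are not reported here. Replicate letters pair the arrays, as each letter is 1 slide. The deviations of same-lettered HemeAlb200 and Control arrays from their group means correlated at 0.313, 0.33, 0.166 and 0.167 for a to d. The highest correlation with a Control array of another letter was 0.06, 0, 0.198 and 0.148, so that for c another letter was higher. Alternatives covered background correction, filters, the choice of probe, scan day, the replicate block and each array left out in turn.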

Additional observations from a re-analysis of the deposited data

Results flagged for a closer look

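In 23 of 442 groups of 4 arrays examined, the highest or lowest array lay far from the others, by the gap to its nearest neighbour as a share of the group's whole range. Chance flags about 1 in 20 groups. Among HemeAlb200 arrays these were Vegfa replicate a (0.895), Me1 replicate b (0.847), H2-T10 replicate d (0.981), Slc39a10 replicate c (0.894), Kcne3 replicate a (0.836), Top2a replicate c (0.842), Esrrb replicate a (0.849), Ceacam19 replicate c (0.86) and Spic replicate a (0.839), with the share of the range in brackets. Among Control arrays these were Bmp2 replicate a (0.857), Sqle replicate b (0.95), Mertk replicate b (0.883), H2-Oa replicate c (0.839), Tfec replicate b (0.84), Cebpd replicate c (0.847), Rnd3 replicate b (0.839), Slc2a1 replicate b (0.853), Hspb1 replicate a (0.839), Psmb5 replicate a (0.873), Cd3e replicate c (0.838), Cdh5 replicate d (0.943), Ppm1n replicate c (1) and Ceacam19 replicate b (0.846), with the share of the range in brackets. For Vegfa, HemeAlb200 replicate a had a log2 ratio of −1.78, with the other 3 between −1.88 and −1.87. For Spic, HemeAlb200 replicate a had a log2 ratio of 5.79, with the other 3 between 5.68 and 5.69. For Ppm1n, Control replicate c had a log2 ratio of 0.99 and the other 3 were at 0, all 4 below background.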

How the results depend on the processing

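The count of genes called at 200 µM against Control was 386 and stayed within 1.5 times of that under all alternatives run except the background settings. With normexp correction 151 were called (110 higher, 41 lower), and with no background subtraction 228 (170 higher, 58 lower). The cause was not tested. Against 50 µM the count was 106, and 31 with normexp correction. Leaving out 1 array at a time gave 342 to 390 calls, 229 to 260 higher and 113 to 130 lower. The count against 50 µM then ran from 89 to 120 and that against LPS from 3721 to 4024. With the replicate block 394 genes were called (267 higher, 127 lower), 121 against 50 µM and 3874 against LPS, and the block changed the call of none of the 221 named genes. The red channel alone gave 363 calls at 200 µM against Control. Adamts4, called higher at 1.46, was at −0.082 with normexp correction, and 54 other named genes were no longer called under it. After leaving out replicate a of every group, a setting chosen after seeing the data because of its outlier spots, 384 genes were called. Depth on these arrays is signal over background: 284 of the 386 genes were above it on all 8 arrays.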
